A study of Sus scrofa with 120 samples.

Results

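The interleukin-6 (IL-6) family is described here by 8 genes of the pig: the ligands IL6, IL11, LIF and CLCF1, the receptor chains IL6ST and LIFR, the transcription factor STAT3 and the feedback inhibitor SOCS3. They were chosen by gene symbol, and are 8 of the 31907 genes in the deposited count table. The ligands of this family share the signalling receptor chain gp130, the product of IL6ST, which pairs with itself or with a partner such as the LIF receptor. Occupied receptors activate JAK kinases, which phosphorylate STAT3. STAT3 enters the nucleus and switches on target genes that include SOCS3, whose product binds gp130 and the JAK kinases and ends the signal. In cartilage, IL-6 and LIF are known as products of inflamed chondrocytes and as promoters of matrix breakdown.

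All cells were primary chondrocytes of pig femoral cartilage cast in 2% agarose, and 4 libraries of bulk RNA were sequenced for each of 30 groups. TRPV4 and PIEZO1 are mechanically sensitive cation channels, and each was studied in an experiment of its own, with RNA taken 3 h or 9 h after stimulation began. In the TRPV4 experiment (48 libraries) the 6 conditions were the TRPV4 agonist GSK101 (1 nM), the inflammatory cytokine IL-1 (1 ng/mL), cyclic unconfined loading with the TRPV4 antagonist GSK205 (10 uM), the same loading alone, GSK205 alone, and DMSO vehicle on free-swelling constructs. Loading was 10% deformation at 1 Hz for 3 h, so the loaded constructs of the 9 h harvest had rested since. In the PIEZO1 experiment (72 libraries) cells were transfected with siRNA against PIEZO1 (siPIEZO1), transfected with a non-targeting siRNA (siNTC) or not transfected (NT). Each of these 3 transfection states was compressed once, slowly, to 80% deformation, treated with the PIEZO1 agonist Yoda1 (5 uM), or given DMSO vehicle and left free swelling. The sample titles say transduced, where the protocol describes siRNA transfection. The dose units of GSK205 and Yoda1 are those of the study's design text, since the sample labels give larger ones. The experiments used different library kits and were fitted apart, so no level is compared between them. The labels do not say whether the 4 libraries of each group had separate animals as their source, so a p-value measures only how these libraries spread.

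Libraries held 20651530 to 80223797 counts in the TRPV4 experiment and 36807992 to 66240251 in the PIEZO1 experiment, and the common biological coefficient of variation was 0.107 at 3 h and 0.0874 at 9 h in the TRPV4 experiment, against 0.282 and 0.300 in the PIEZO1 experiment. All 12 chondrocyte markers looked up were detected in every group, and of 11 leukocyte markers LYZ was at 0 in every library. The summed leukocyte markers were 93.3 to 104 CPM (counts scaled to the size of the library) in the IL-1 libraries at 9 h, against 33.0 to 40.5 in DMSO libraries. Of 5 leukocyte markers tested there, CD14 was higher (1.78 on the log2 scale) and CD68 lower (−0.77), with a list median of −0.62. In the same libraries 8 fibroblast and synovial markers summed to 1157 to 1278 CPM, against 431 to 470.2 with DMSO. Of 7 tested, 3 were higher, PRG4 (2.70), PDPN (1.99) and COL3A1 (1.80), and 3 lower, with a median of −0.31. The 6 endothelial markers stayed between 2.43 and 10.3 CPM. Among all libraries, the siPIEZO1 vehicle libraries 1 at 3 h and 4 at 9 h correlated least with their group (mean r of 0.961 and 0.964 with the group's other libraries). Calls of members that rest on them are given with and without them. The PIEZO1 values that follow are given with all libraries only. PIEZO1 itself averaged 4.72 ± 0.429 CPM in siPIEZO1 vehicle libraries and 5.64 ± 1.53 CPM in siNTC vehicle libraries at 3 h, a log2 fold change of −0.24 ± 0.19 (SE) with an adjusted p of 0.576. At 9 h it was −0.66 ± 0.23, with an adjusted p of 0.0619. The knockdown did not pass the test, and "siPIEZO1" below means the libraries labelled so.

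All 8 members passed the filter on low counts in both experiments and at both times. On the pig assembly Sscrofa11.1 (RefSeq), IL6 lies at chr9:91506421-91510830, IL11 at chr6:59540482-59544909, LIF at chr14:47221540-47239513 and CLCF1 at chr2:5142315-5152750. The receptor genes IL6ST and LIFR share a chromosome, at chr16:35101304-35151832 and chr16:23627700-23672724. RefSeq names the locus at the LIFR span LOC102167255, and the symbol LIFR is that of the count table. SOCS3 and STAT3 share another, at chr12:3643832-3647015 and chr12:20407316-20471091. CLCF1 overlaps the uncharacterised gene LOC110259234, and IL6ST overlaps the long non-coding gene LOC102168151. Whether reads were counted by strand is not given in the sources used here, so reads from these overlaps cannot be told apart. Values below are CPM after scaling each experiment's libraries together, with means ± SD over 4 libraries. A gene is called when its adjusted p (edgeR quasi-likelihood test, Benjamini-Hochberg over all genes tested) is under 0.05, with no minimum fold, and log2 fold changes carry their SE. In bulk RNA, fewer cells of a type and less RNA per cell cannot be told apart.

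GSK101, the TRPV4 agonist, raised every member at both times. The ligand LIF and the inhibitor SOCS3 rose most at 3 h, IL11 gained further by 9 h, and the receptor chains and STAT3 rose less than 2-fold. All 8 were called higher at 9 h, where 29.3% of all genes were, and all 8 at 3 h, where 22.0% were. The median log2 fold change of the 8 was 1.38 at 9 h and 1.97 at 3 h, against −0.07 and 0.01 for all genes tested.

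LIF, a gp130 ligand that signals through LIFR, read 39.5, 37.3, 36.4 and 38.5 CPM in GSK101 libraries at 9 h, against 2.06, 3.23, 2.81 and 2.43 in DMSO libraries. At 3 h it read 48.4, 51.0, 61.6 and 56.0 with GSK101, against 2.63, 2.85, 3.16 and 3.07 with DMSO. Every GSK101 library lay far above every DMSO library, with a fold of 13.9 at 9 h and 18.7 at 3 h. IL11, which signals through its own alpha receptor and gp130, read 35.5, 35.6, 39.7 and 39.9 CPM with GSK101 at 9 h, against 3.33, 3.62, 3.87 and 4.15 with DMSO. At 3 h its GSK101 libraries read 17.1, 23.7, 24.5 and 21.2, against 3.95, 4.87, 4.03 and 4.07 in DMSO libraries. The rise of IL11 was thus 9.88-fold at 9 h and 5.19-fold at 3 h, with no overlap between groups at either time. CLCF1, a ligand of the ciliary neurotrophic factor receptor complex, lay between 9.55 and 12.1 CPM with GSK101 at 9 h, and between 2.87 and 4.13 with DMSO (log2 fold change 1.63 ± 0.13). At 3 h it averaged 8.21 ± 0.974 with GSK101 and 2.79 ± 0.697 with DMSO (1.56 ± 0.16, adjusted p = 2.16e-09).

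IL6 itself, the ligand that signals through IL6R and gp130, was raised far more at the early harvest than at the late one. Its GSK101 libraries read 8.77, 11.9, 10.1 and 9.03 CPM at 9 h, against 3.62, 4.39, 4.58 and 5.27 with DMSO. At 3 h they read 38.7, 35.6, 31.8 and 45.4, against 3.81, 5.83, 5.87 and 4.03. The fold was 2.19 at 9 h and 7.84 at 3 h. Tested directly, the response to GSK101 differed between 9 h and 3 h for 6 members, 4 with a larger response at 9 h, where 23.1% of all genes had one, and 2 with a smaller one, where 22.7% had. The IL6 response was smaller at 9 h, with a log2 difference of −1.79 ± 0.19, while the IL11 response was 0.98 ± 0.22 larger (adjusted p = 0.000254). LIF and CLCF1 differed by −0.37 and 0.12, and neither passed the test (adjusted p = 0.115 and 0.666).

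The receptor chain IL6ST averaged 472 ± 29.8 CPM with GSK101 at 9 h and 263 ± 13.5 with DMSO, and at 3 h 339 ± 5.54 with GSK101 and 265 ± 22.0 with DMSO. LIFR averaged 134 ± 4.67 with GSK101 and 82.8 ± 3.36 with DMSO at 9 h, and 125 ± 5.70 with GSK101 and 91.9 ± 4.63 with DMSO at 3 h. STAT3 averaged 423 ± 1.88 with GSK101 and 231 ± 4.78 with DMSO at 9 h, and 292 ± 9.56 with GSK101 and 234 ± 7.85 with DMSO at 3 h. Their rises were small but cleanly separated, and each was larger at 9 h than at 3 h when the times were tested against each other, by 0.49 ± 0.08 (IL6ST), 0.25 ± 0.07 (LIFR) and 0.55 ± 0.06 (STAT3) on the log2 scale. SOCS3 read 187, 184, 194 and 191 CPM in GSK101 libraries at 9 h, against 22.8, 22.0, 20.9 and 20.3 in DMSO libraries. At 3 h it read 521, 501, 572 and 528, against 37.8, 40.3, 41.9 and 45.9. The response of SOCS3 was smaller at 9 h, with a log2 difference of −0.54 ± 0.11 (adjusted p = 5.02e-05), though still 8.62-fold. SOCS3 was also lower at 9 h than at 3 h in DMSO constructs alone (log2 fold change −0.95 ± 0.08), as was LIFR (−0.15 ± 0.05, adjusted p = 0.0215). These were the only 2 members called between DMSO times, where 11.8% of all genes were called lower, and the LIFR call was lost without DMSO library 1 or 3 of 3 h or 1 or 2 of 9 h, with no filter and with the 2 groups alone (adjusted p 0.0524 to 0.0820). The GSK101 libraries of 3 h were also deeper, with 62677053 to 80223797 counts against 20651530 to 29904509 in DMSO libraries. With all libraries thinned to one depth, the 8 calls at that time all remained. At 9 h the 12 chondrocyte markers summed to 78810 to 81404 CPM with GSK101 and 90827 to 95243 with DMSO (2 called higher, 6 lower). The 8 fibroblast and synovial markers summed to 581 to 594 and 431 to 470.2 CPM (3 higher, 2 lower). At 3 h the chondrocyte sums were 128758 to 141547 and 99937 to 119825 CPM (6 higher, 1 lower). Of all genes, 33.0% were called lower at 9 h and 18.0% at 3 h. The part of these markers was not tested.

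**Figure D1:**
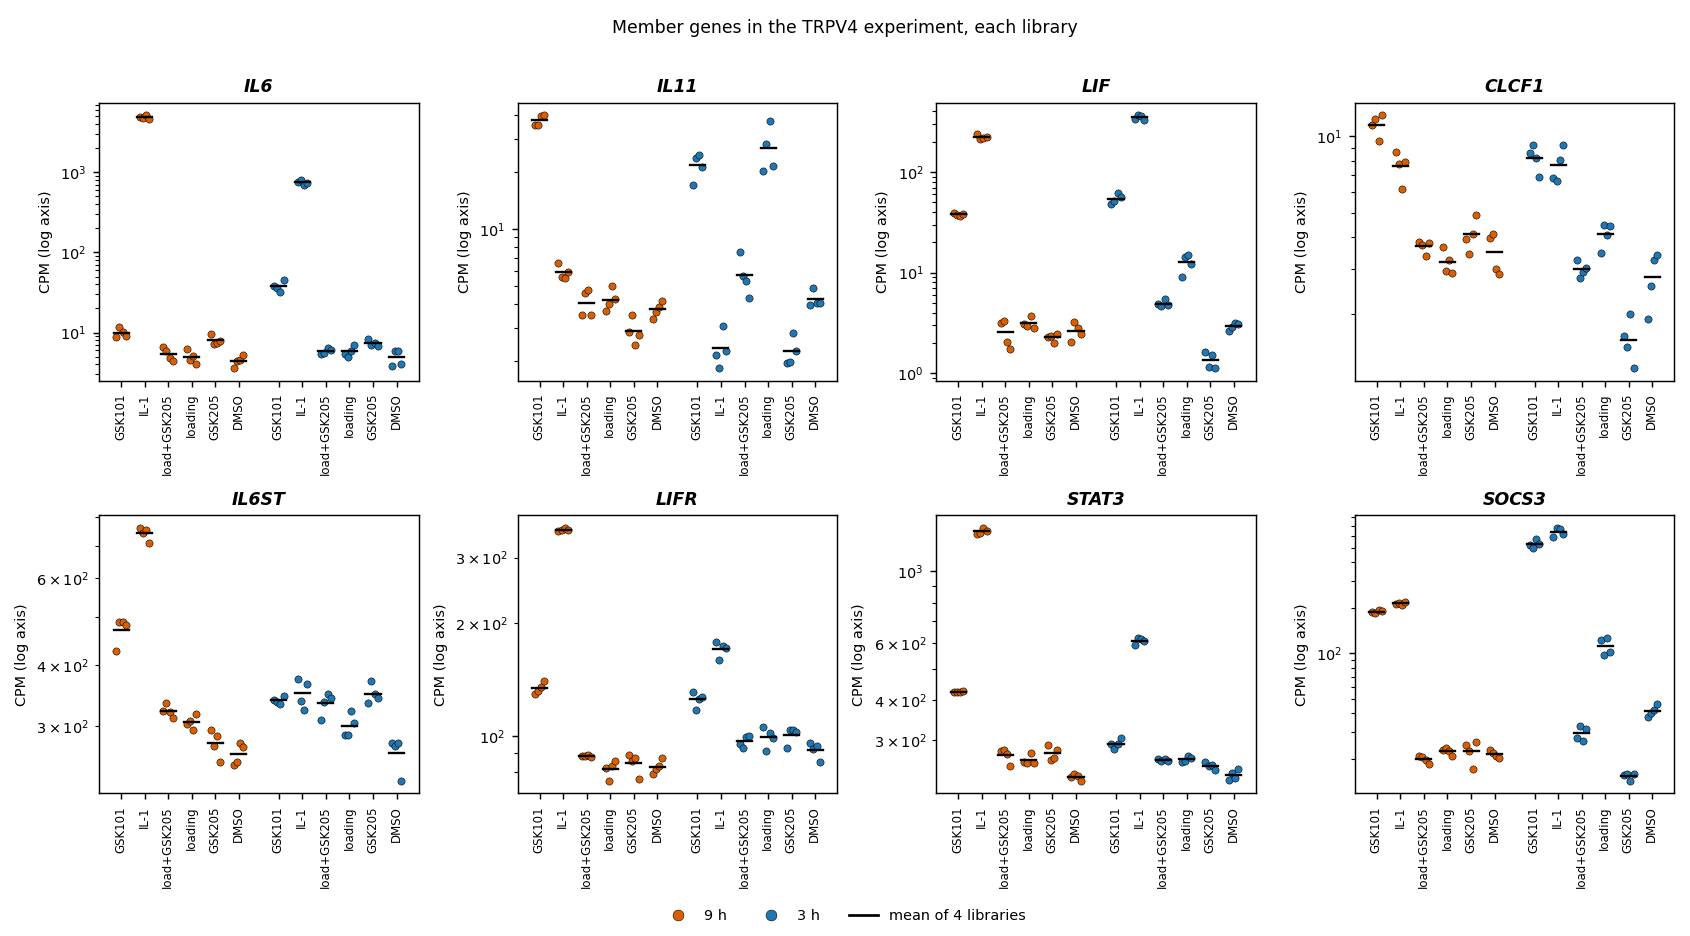
Level of each of the 8 genes in every library of the TRPV4 experiment, in CPM on a log axis, with 1 panel per gene, the 9 h groups left of the 3 h groups and a bar at each group's mean. IL6 spans from about 4 CPM in DMSO libraries to 4642 to 5169.8 in IL-1 libraries at 9 h, while IL6ST and LIFR move within a narrower range.

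IL-1, a cytokine that acts through NF-kappaB, raised 7 members at both times, and IL11 moved in opposite directions at the 2 times. IL6 rose most and went on rising, LIF and SOCS3 rose early and were a little less raised at 9 h, and the receptor chains and STAT3 climbed to 9 h. All 8 members were called higher at 9 h, where 30.6% of all genes were. At 3 h 7 were called higher, where 18.5% of all genes were, and IL11 was called lower, where 13.7% were. These comparisons use the same DMSO libraries as those of GSK101. The median log2 fold change of the 8 was 2.29 at 9 h and 1.42 at 3 h, against −0.07 and 0.01 for all genes.

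IL6 read 4914, 4838, 5169.8 and 4642 CPM in IL-1 libraries at 9 h, against 3.62 to 5.27 with DMSO. At 3 h its IL-1 libraries read 761, 799, 695 and 746, against 3.81 to 5.87 with DMSO. The fold was 1072 at 9 h and 154 at 3 h, and the gain between the times was 2.83 ± 0.18 on the log2 scale. IL6 thus went on rising between the harvests. LIF averaged 223 ± 10.4 CPM with IL-1 and 2.63 ± 0.502 with DMSO at 9 h, and 349.6 ± 17.5 with IL-1 and 2.93 ± 0.236 with DMSO at 3 h. Its response was 81.8-fold at 9 h and 119-fold at 3 h, and the difference of −0.51 ± 0.19 passed the test (adjusted p = 0.0303). It did not pass without DMSO library 1 of 3 h, DMSO library 2 or 3 of 9 h or IL-1 library 2 of 9 h, nor at one depth (adjusted p 0.0508 to 0.162). IL11 read 6.56, 5.54, 5.47 and 5.93 CPM in IL-1 libraries at 9 h, against 3.33 to 4.15 with DMSO (log2 fold change 0.62 ± 0.12, adjusted p = 3.3e-05). At 3 h it read 2.16, 1.83, 3.05 and 2.26, against 3.95 to 4.87 (−0.84 ± 0.21, adjusted p = 0.00241). So IL11 was below its DMSO libraries at 3 h and above them at 9 h, without overlap, and the change between times was 1.499 ± 0.25 (adjusted p = 1.72e-06). The log2 fold change of CLCF1 was 1.10 ± 0.13 at 9 h, and at 3 h it was 1.45 ± 0.16.

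LIFR read 354, 356, 359.6 and 355 CPM in IL-1 libraries at 9 h, against 79.3, 81.5, 83.4 and 87.2 with DMSO, and STAT3 read 1309, 1316, 1363 and 1339, against 231, 236, 232 and 224. The rise of STAT3, the factor that this receptor activates, was 5.67-fold at 9 h, and its log2 fold change was 2.50 ± 0.04 at 9 h and 1.39 ± 0.04 at 3 h. IL6ST was up by 1.47 ± 0.05 at 9 h and 0.41 ± 0.06 at 3 h, and LIFR by 2.08 ± 0.05 at 9 h and 0.91 ± 0.05 at 3 h. SOCS3 averaged 214 ± 4.41 CPM with IL-1 and 21.5 ± 1.13 with DMSO at 9 h, and 636 ± 39.6 with IL-1 and 41.5 ± 3.41 with DMSO at 3 h (9.79-fold and 15.5-fold). Between times the IL-1 response differed for 7 of 8 members, 5 with a higher log2 fold change at 9 h, where 18.5% of all genes had one, and 2 with a lower one, where 20.4% had, and CLCF1 did not pass (−0.31, adjusted p = 0.247). IL11 is among the 5 by a change of sign, with −0.84 at 3 h and 0.62 at 9 h. The leukocyte and fibroblast marker sums given above moved with the 9 h IL-1 values, and their part in the result was not tested. None of the alternatives (1 library left out, another scaling, filter or tool, or the replicate number as a block) ended a call of GSK101 or IL-1 against DMSO.

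Set directly against IL-1, GSK101 gave a different balance of ligands. On the log2 scale, IL11 was 2.68 ± 0.11 higher with GSK101 at 9 h, and 3.21 ± 0.19 higher at 3 h. IL6 was lower with GSK101, with −8.93 ± 0.13 at 9 h and −4.30 ± 0.10 at 3 h, and so was LIF, with −2.55 ± 0.09 and −2.68 ± 0.09. At 9 h, 2 members were called higher with GSK101 (27.5% of all genes) and 6 lower (26.3%). At 3 h, 1 was called higher (20.1%) and 5 lower (21.3%). CLCF1 was 0.54 ± 0.13 higher with GSK101 at 9 h (adjusted p = 0.000493), and at 3 h its difference of 0.11 ± 0.14 did not pass (0.585). SOCS3 differed less between these stimuli than IL6, IL11 and LIF did. It averaged 189 ± 4.25 CPM with GSK101 and 214 ± 4.41 with IL-1 at 9 h, and 531 ± 30.2 with GSK101 and 636 ± 39.6 with IL-1 at 3 h (log2 difference −0.18 ± 0.06 and −0.25 ± 0.08, adjusted p = 0.0144 and 0.00714).

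**Figure D2:**
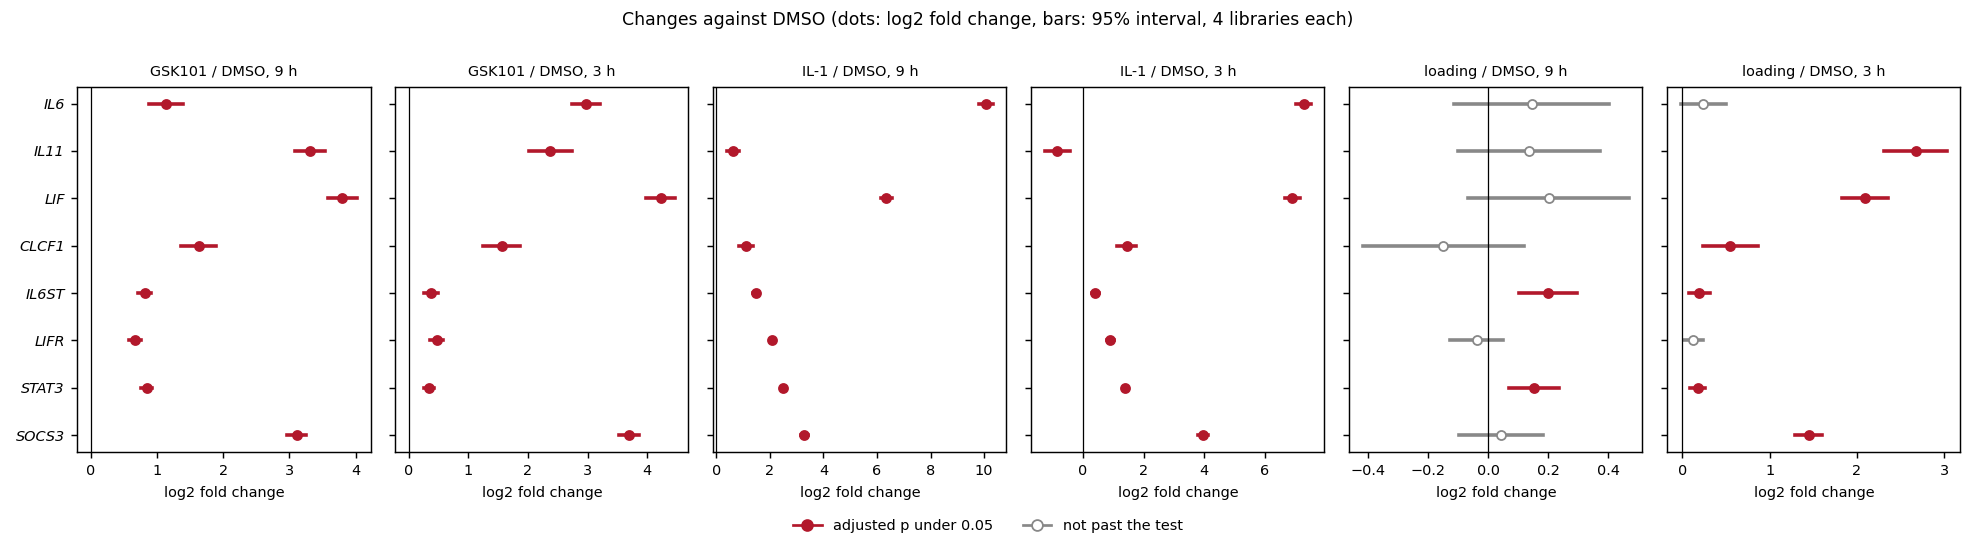
Log2 fold change against DMSO of the 8 genes for GSK101, IL-1 and loading, each at 9 h and at 3 h, with bars of 95% intervals and filled red dots where the adjusted p was under 0.05. With loading, IL11, LIF and SOCS3 stand apart at 3 h (2.67, 2.09 and 1.45), and at 9 h all 3 lie near 0.

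Cyclic loading raised IL11, LIF and SOCS3 clearly at 3 h, with smaller rises of CLCF1, STAT3 and IL6ST, and IL6 did not pass the test. At 9 h, 6 h after loading had stopped, the 4 ligands and SOCS3 overlapped DMSO constructs and did not pass the test. At 3 h 6 members were called higher, where 7.86% of all genes were. At 9 h 2 were, IL6ST and STAT3, where 12.5% were.

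At 3 h IL11 read 20.1, 28.2, 37.3 and 21.5 CPM in loaded libraries, against 3.95, 4.87, 4.03 and 4.07 in DMSO libraries, a fold of 6.38. LIF read 8.99, 14.4, 14.8 and 12.3, against 2.63, 2.85, 3.16 and 3.07, a fold of 4.26. SOCS3 read 123, 97.3, 126 and 102, against 37.8, 40.3, 41.9 and 45.9, a fold of 2.72. None of these groups overlapped. CLCF1 averaged 4.12 ± 0.453 CPM with loading and 2.79 ± 0.697 with DMSO (log2 fold change 0.55 ± 0.16, adjusted p = 0.0258). IL6ST was up by 0.19 ± 0.06 (adjusted p = 0.0377) and STAT3 by 0.18 ± 0.04 (0.00746). The CLCF1 call was lost without DMSO library 1 or 2 or loading library 2, 3 or 4, at one depth and with the 2 groups alone (adjusted p 0.0584 to 0.0995). The IL6ST call was lost without DMSO library 4 or loading library 3 or 4 and in 4 other alternatives (0.0543 to 0.180), and that of STAT3 with no filter and with the 2 groups alone (0.0627 and 0.143). IL6 read 5.40, 4.90, 5.85 and 7.07 CPM with loading, against 3.81, 5.83, 5.87 and 4.03 with DMSO, and these overlapped (0.24 ± 0.13, adjusted p = 0.282).

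At 9 h IL11 averaged 4.21 ± 0.569 CPM in loaded libraries and 3.74 ± 0.348 in DMSO libraries, LIF 3.14 ± 0.380 and 2.63 ± 0.502, and SOCS3 22.4 ± 1.13 and 21.5 ± 1.13. All 3 overlapped. Tested between times, the loading response was smaller at 9 h for IL11 (log2 difference −2.51 ± 0.23), LIF (−1.86 ± 0.21), SOCS3 (−1.37 ± 0.11) and CLCF1 (−0.67 ± 0.21, adjusted p = 0.0339), where 5.10% of all genes were called lower. The CLCF1 call was lost in 11 alternatives, 8 of them with 1 library left out (DMSO library 1 or 2 and loading library 2 or 4, of either time; adjusted p over all 11 from 0.0517 to 0.163). With GSK101 the IL11 level went on climbing to 9 h, while the loaded constructs held their IL11 rise at the 3 h harvest only. Loading ran for 3 h, and how long GSK101 stayed on is not stated here. The 2 time courses were not tested against each other.

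GSK205, the TRPV4 antagonist, was set against loading alone, against itself without loading, and against vehicle. With loading at 3 h it brought down the same 4 genes that loading had raised most: IL11, LIF, SOCS3 and CLCF1, called lower where 8.16% of all genes were. IL6, IL6ST, LIFR and STAT3 differed by 0.02, 0.14, −0.04 and −0.02 on the log2 scale, and none passed.

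IL11 read 7.54, 5.64, 5.31 and 4.30 CPM under loading with GSK205, against 20.1, 28.2, 37.3 and 21.5 under loading alone (fitted percent change −78.9). LIF read 4.82, 4.65, 5.43 and 4.78, against 8.99, 14.4, 14.8 and 12.3 (percent change −60.7, log2 fold change −1.35 ± 0.12). SOCS3 read 27.6, 33.0, 26.4 and 31.7, against 123, 97.3, 126 and 102 (percent change −73.7). No library with the antagonist reached any library without it in these 3 genes. CLCF1 averaged 3.00 ± 0.213 under loading with GSK205 and 4.12 ± 0.453 under loading alone (−0.46 ± 0.16, adjusted p = 0.0459). That call was lost with no filter, with the replicate block, at one depth, and without any 1 of the 4 antagonist libraries or loading library 2, 3 or 4 (adjusted p 0.0533 to 0.129). At 9 h edgeR called 0 of 8 members between these groups, with 2 at an unadjusted p under 0.05, where 4.10% of all genes were called. DESeq2 also called 0.

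The antagonist lowered the same genes without any load. At 3 h GSK205 alone gave SOCS3 values of 15.6, 15.8, 14.3 and 15.9 CPM, against 37.8, 40.3, 41.9 and 45.9 with DMSO (percent change −62.7, adjusted p = 3.51e-13). The log2 fold change was −1.10 ± 0.19 for LIF, −0.90 ± 0.22 for IL11 and −0.81 ± 0.18 for CLCF1. These 4 were called lower, where 12.5% of all genes were, while IL6 and IL6ST were called higher, where 14.6% were. IL6 read 8.33, 7.05, 7.42 and 6.84 CPM with GSK205, against 3.81 to 5.87 with DMSO (0.61 ± 0.13, adjusted p = 0.000898), so that IL6 and its relatives moved in opposite directions. IL6ST averaged 349 ± 15.7 with GSK205 and 265 ± 22.0 with DMSO. At 9 h IL6 was still higher (0.82 ± 0.13, adjusted p = 2.37e-05), as was STAT3 (0.22 ± 0.04), where 12.1% of all genes were, and IL11 lower (−0.40 ± 0.13, adjusted p = 0.0275), where 9.15% were. The IL11 call at 9 h was lost without GSK205 library 1, 3 or 4 or DMSO library 3 or 4, at one depth and with the 2 groups alone (adjusted p 0.0573 to 0.108). SOCS3 read 24.8, 22.5, 17.2 and 25.8 with GSK205 and 22.8, 22.0, 20.9 and 20.3 with DMSO at 9 h, which overlap. Without GSK205 library 3, SOCS3 was called higher (0.16, adjusted p = 0.0442).

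Loading still acted in the presence of GSK205. Against GSK205 alone, loading with GSK205 at 3 h raised LIF by 1.84 ± 0.17, IL11 by 1.33 ± 0.21 (adjusted p = 2.98e-05), SOCS3 by 0.94 ± 0.09 and CLCF1 by 0.91 ± 0.18 (adjusted p = 0.000557), where 7.58% of all genes were called higher. The interaction of loading and GSK205 asks whether the loading response differed with the antagonist, each set against its own unloaded group. It was −1.34 ± 0.28 for IL11 (adjusted p = 0.00882) and −0.50 ± 0.12 for SOCS3 (0.0191), where 1.35% of all genes were called lower. For LIF it was −0.25 ± 0.23, with a 95% interval of −0.70 to 0.21, and for CLCF1 0.36 ± 0.24, with one of −0.11 to 0.82, and neither passed (adjusted p = 0.671 and 0.503). The IL6 interaction at 3 h did not pass either, but did with no filter and without DMSO library 3 (0.0179 to 0.0498). IL6 at 3 h averaged 5.87 CPM under loading with GSK205 and 7.41 with GSK205 alone, a difference that passed with no filter only (0.0269). The SOCS3 interaction passed narrowly. Without GSK205 library 2, loading with GSK205 library 1 or loading library 3, it had an adjusted p between 0.0526 and 0.0657. At 9 h the interaction was called for IL6 alone (−0.70 ± 0.18, adjusted p = 0.0202), where 2.41% of all genes were called lower, and it was lost without GSK205 library 1, loading with GSK205 library 3 or 4 or loading library 1 and with only the compared groups (0.0505 to 0.0742). Against GSK205 alone at 9 h, loading with GSK205 gave lower IL6 (−0.56 ± 0.13, where 9.20% of all genes were called lower) and higher IL11 (0.50 ± 0.13) and IL6ST (0.21 ± 0.05, where 8.83% were called higher). The IL11 call was lost with only the compared groups (adjusted p = 0.0586), and SOCS3 (−0.19, adjusted p = 0.0762) passed by DESeq2 and without GSK205 library 3 (0.000389 to 0.0450).

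**Figure D3:**
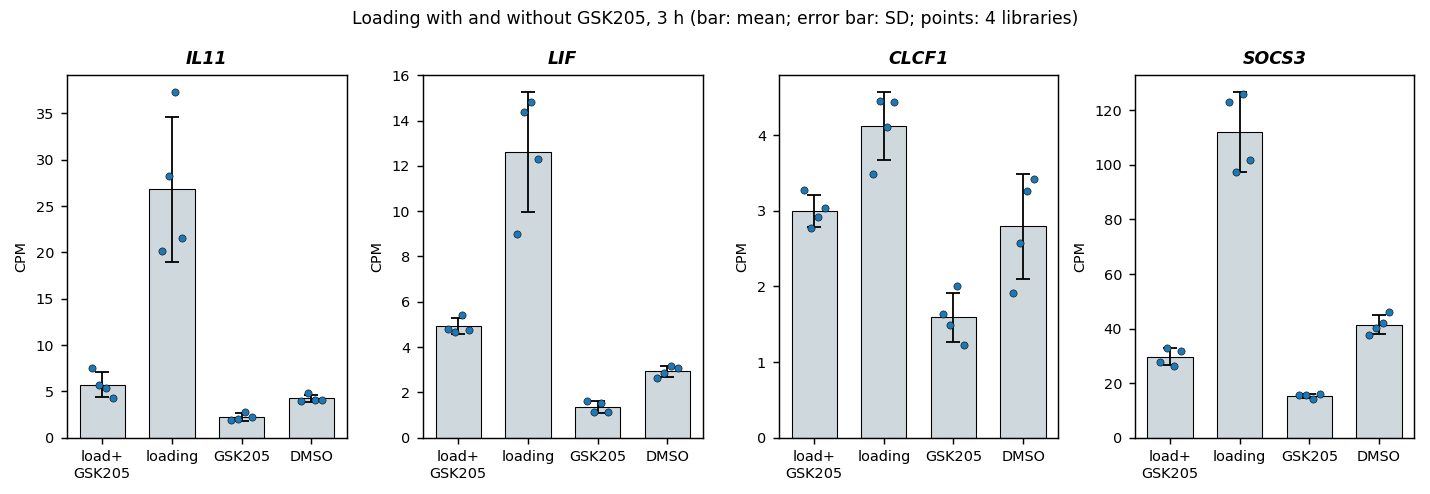
IL11, LIF, CLCF1 and SOCS3 at 3 h, in CPM on a linear axis from 0, under loading with GSK205, loading alone, GSK205 alone and DMSO, with bars at the mean of 4 libraries, error bars of 1 SD and each library as a point. In all 4 genes loading alone is the highest group and GSK205 alone the lowest by mean, and loading with GSK205 lies between them.

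Ranked by level, the conditions of the TRPV4 experiment separated best for LIF and SOCS3 at 3 h. Both ran in one order without any overlap between neighbours, except for where DMSO stood: IL-1, GSK101, loading, then loading with GSK205, DMSO and GSK205 for LIF, and IL-1, GSK101, loading, then DMSO, loading with GSK205 and GSK205 for SOCS3. IL11 had loading and GSK101 overlapping at the top, and IL-1 and GSK205 overlapping at the bottom. IL6 had IL-1, GSK101 and GSK205 each apart, and the other 3 conditions overlapping. At 9 h IL-1 was highest and GSK101 next for IL6, LIF, IL6ST, LIFR, STAT3 and SOCS3, with GSK101 first and IL-1 next for IL11 and CLCF1. Of these pairs none overlapped, and only for IL6 did GSK101 then overlap the next condition, GSK205.

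Across the 12 group means of the TRPV4 experiment, log2 levels of LIF and SOCS3 had a Pearson r of 0.940, LIFR and STAT3 one of 0.971, and IL11 and IL6 one of −0.08. These means share libraries, depth and stimuli, so the r describes them only. The genes whose group means followed IL6 most closely were RND1 (0.993), CCL5 (0.987) and CXCL2 (0.986). Those for LIF were HSPA6 (0.983), IER3 (0.972) and TICAM1 (0.969), those for SOCS3 KDM6B (0.972), IER5 (0.968) and CISH (0.956), and those for IL11 THSD1 (0.931), IGF2BP1 (0.916) and GARIN5B (0.900). CCL5 and CXCL2 are chemokines, and CISH is a relative of SOCS3.

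The rest of the pathway was read from 6 lists chosen with earlier results of these data known. Of all genes tested, 29.3% were called higher and 33.0% lower with GSK101 at 9 h, 22.0% and 18.0% with GSK101 at 3 h, 30.6% and 34.5% with IL-1 at 9 h, and 18.5% and 13.7% with IL-1 at 3 h, and the counts of called list genes stand beside these shares. Of 17 STAT3 target genes tested, 15 were higher and 1 lower with GSK101 at 9 h, and 15 higher and 0 lower at 3 h, where JUNB, an AP-1 factor, was up by 3.44 and CEBPB by 1.87 on the log2 scale. The list's median was 1.28 at 9 h and 0.73 at 3 h, against −0.07 and 0.01 for all genes. With IL-1, 13 were higher and 4 lower at 9 h (median 2.73) and 13 higher and 1 lower at 3 h (2.27), with TNFAIP6, a hyaluronan-binding protein, up by 5.75 at 9 h. With loading at 3 h 12 were higher and 0 lower (median 0.39, all genes 0.01), where 7.86% and 2.30% of all genes were called. Loading with GSK205 lowered 9 and raised 0 against loading alone (−0.32, all genes −0.02), where 8.16% of all genes were called lower. Without loading, GSK205 likewise lowered 9 and raised 3 against DMSO at 3 h (−0.26), where 12.5% were called lower and 14.6% higher. At 9 h the balance was the other way. GSK205 alone raised 6 and lowered 1 (0.13, all genes −0.02), where 12.1% were called higher and 9.15% lower. Of 12 regulators of the IL6 promoter and messenger, 11 were higher and 0 lower at 9 h and 12 higher at 3 h with GSK101 (median 0.53 and 0.65), and likewise 11 and 12 with IL-1 (1.60 and 1.39). With GSK205 alone, 9 were higher and 0 lower at 9 h (0.25), and 1 higher and 3 lower at 3 h (−0.01). ZFP36, which destabilises AU-rich messengers, led with GSK101 at 3 h (4.51), and ZC3H12A, the nuclease regnase-1, led with IL-1 (5.28 at 9 h and 5.38 at 3 h).

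Among the inhibitors tested beside SOCS3, SOCS1 and CISH moved most. SOCS1 was up by 1.73 at 9 h and 3.11 at 3 h with GSK101, and by 3.55 and 3.53 with IL-1. Of 11 inhibitors, 7 were higher and 4 lower with GSK101 at 9 h (median 0.45) and 6 higher and 0 lower at 3 h (0.17), and with IL-1 6 higher and 2 lower at 9 h (0.45) and 6 higher and 1 lower at 3 h (0.24). Of 6 other receptors, 3 were higher and 1 lower with GSK101 at 9 h (0.99) and 2 higher and 1 lower at 3 h (0.17), and 2 higher and 1 lower with IL-1 at 9 h (−0.05) and at 3 h (0.38). The receptor counts with IL-1 at 9 h, and the 4 inhibitors lower with GSK101 at 9 h, lie near or under the shares of all genes given above. The receptor genes that led differed between the stimuli. IL6R, the alpha receptor for IL-6, was up by 2.08 at 9 h and 1.22 at 3 h with GSK101, and OSMR, the oncostatin M receptor chain, by 4.27 and 3.54 with IL-1. Of 10 JAK-STAT genes, 5 were higher and 4 lower with GSK101 at 9 h (0.20), the lower ones again near the share of all genes, and 5 higher and 0 lower at 3 h (0.14), against 9 higher and 0 lower with IL-1 at 9 h (0.55) and 6 and 0 at 3 h (0.38). Of the other ligands tested, CTF1 was up by 1.66 with GSK101 at 3 h.

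In the PIEZO1 experiment the clearest change was in LIF, which compression raised at 3 h in all 3 transfection states. In cells not transfected, compression also raised STAT3 and lowered SOCS3. IL6 averaged at most 4.24 CPM in any group, and no member was called after compression or Yoda1 at 9 h in NT or siNTC cells.

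At 3 h LIF read 59.9, 66.7, 75.7 and 49.5 CPM in compressed siPIEZO1 libraries, against 24.4, 28.3, 43.6 and 36.8 in siPIEZO1 vehicle libraries. In siNTC cells it read 102, 79.3, 95.9 and 44.4 with compression, against 37.6, 33.0, 37.6 and 27.3 with vehicle, and in NT cells 138, 120.3, 105 and 62.0, against 35.5, 42.3, 49.6 and 47.1. Every compressed library lay above every vehicle library of its own state. The log2 fold change was 0.91 ± 0.22 in siPIEZO1 cells (adjusted p = 0.0394), 1.24 ± 0.22 in siNTC cells (0.00198) and 1.27 ± 0.22 in NT cells (0.000176). LIF was the only member called with compression in siPIEZO1 cells, where 0.393% of all genes were called higher, and in siNTC cells, where 0.584% were. Without siPIEZO1 vehicle library 1, which stood apart, the siPIEZO1 value was 0.79 ± 0.23 and did not pass (adjusted p = 0.118), nor did it without vehicle library 2 or 4 or any 1 compressed library (adjusted p from 0.0540, and 0.247 with the 2 groups alone). The difference between the siPIEZO1 and siNTC responses was −0.32 ± 0.31, with a 95% interval of −0.93 to 0.28 and an adjusted p of 0.982. By edgeR this interaction called 0 of 8 members, with 0 at an unadjusted p under 0.05, and 0.00% of all genes, and DESeq2 also called 0 members.

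STAT3 read 242, 258, 239.6 and 222 CPM in compressed NT libraries at 3 h, against 132, 145, 147 and 205 in NT vehicle libraries (0.60 ± 0.15, adjusted p = 0.0084), where 4.18% of all genes were called higher. Vehicle library 4 stood near the compressed ones, and without it the value was 0.76 (adjusted p = 0.000806), while without vehicle library 1 the adjusted p was 0.0611. IL6ST was 0.47 ± 0.16 higher with compression and did not pass (adjusted p = 0.0804), but it did without vehicle library 4 (0.60, 0.0192). It also passed by DESeq2 and with the 2 groups alone (adjusted p over all 3 alternatives from 0.0132 to 0.0410). SOCS3 read 3.46, 2.42, 2.12 and 1.96 in compressed NT libraries, against 4.33, 5.50, 6.22 and 4.94 with vehicle (−1.08 ± 0.21, adjusted p = 0.000845), where 2.09% of all genes were called lower. Its compressed libraries lay wholly below the vehicle ones. In siNTC cells SOCS3 changed by 0.33 and STAT3 by 0.26 with compression, and neither passed (adjusted p = 0.612 and 0.541). IL6 read 3.24, 7.81, 2.07 and 3.82 CPM in compressed NT libraries and averaged 1.83 in NT vehicle libraries, which did not pass (1.20 ± 0.56, adjusted p = 0.224). With the 2 groups alone it passed (adjusted p = 0.0384). In siPIEZO1 cells IL6 averaged 0.635 with compression, 0.744 with Yoda1 and 0.576 with vehicle at 3 h, and 1 Yoda1 library had no count, which allows up to 0.0574 CPM at 3 counts.

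**Figure D4:**
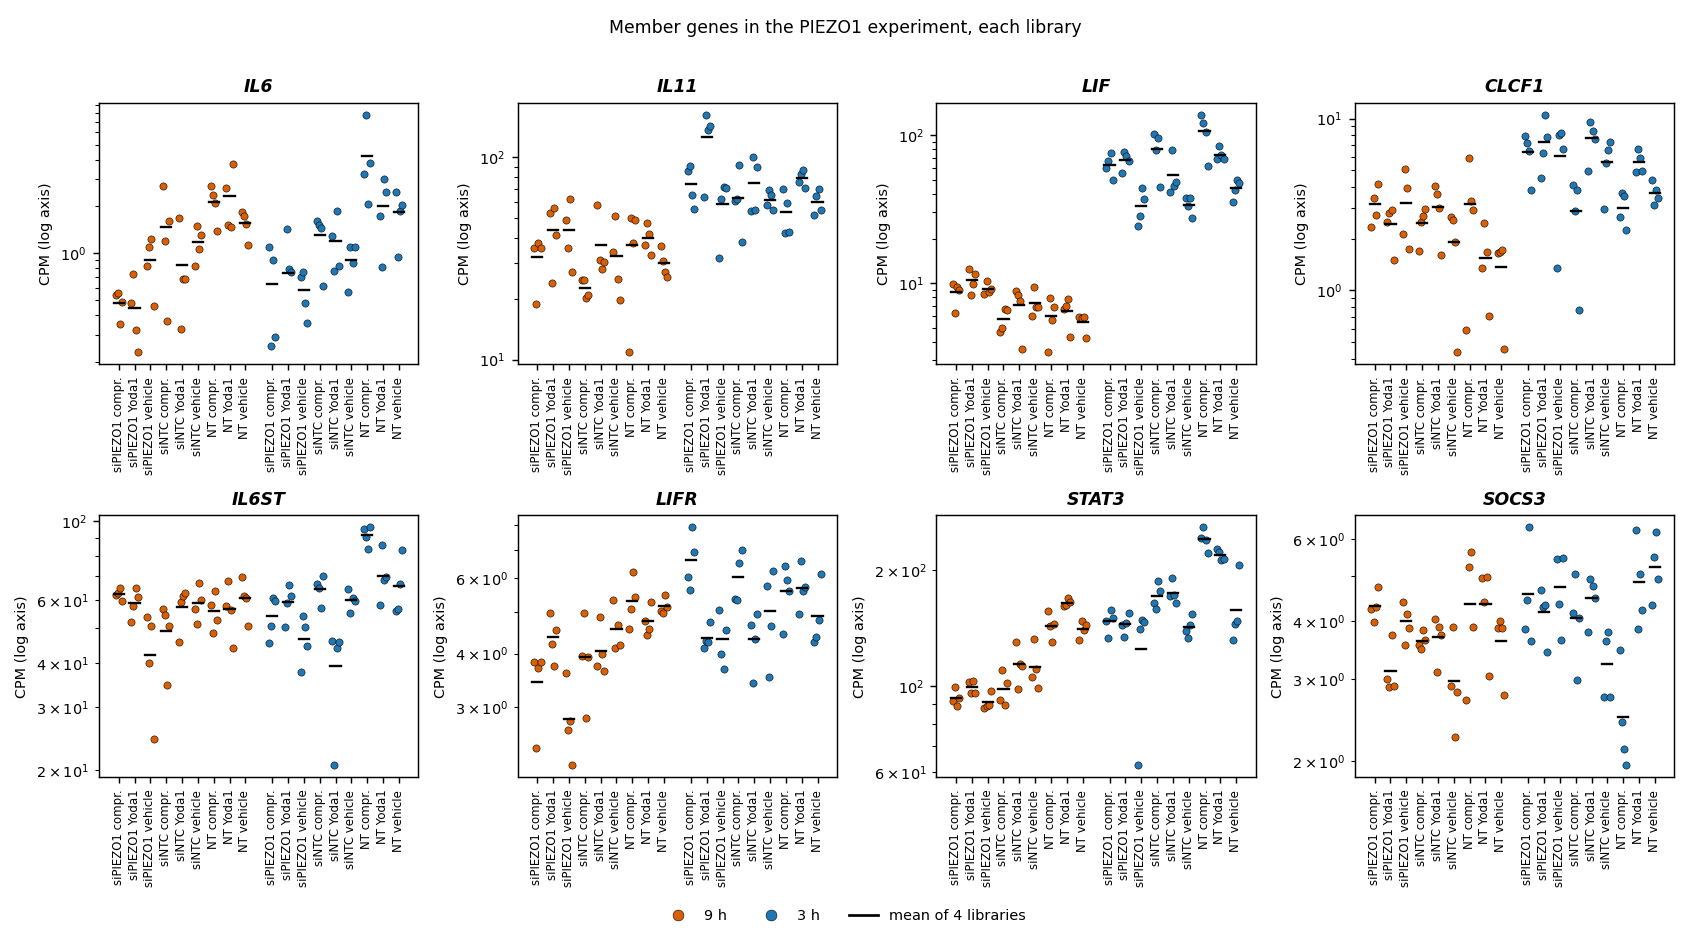
Level of each of the 8 genes in every library of the PIEZO1 experiment, in CPM on a log axis, with the 9 h groups left of the 3 h groups and a bar at each group's mean. The siPIEZO1 Yoda1 library of 3 h with no IL6 count cannot be drawn on this axis; LIF at 3 h stands well above its 9 h levels in all 9 groups.

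At 3 h Yoda1 called 2 members higher in siPIEZO1 cells, 1 lower in siNTC cells and 0 in NT cells. Of all genes, 0.262%, 5.40% and 0.409% were called there either way. Compression called 1 higher, 1 higher, and 2 higher with 1 lower, where 0.600%, 0.911% and 6.27% of all genes were called. As these shares differ, the counts do not rank the transfection states. In siPIEZO1 cells at 3 h, IL11 read 63.5, 163, 136 and 143 CPM with Yoda1, against 31.95, 61.9, 71.4 and 70.2 with vehicle (1.10 ± 0.25, adjusted p = 0.0424). LIF read 55.1, 76.98, 72.5 and 66.4, against 24.4, 28.3, 43.6 and 36.8 (1.02 ± 0.22, adjusted p = 0.0325), where 0.207% of all genes were called higher. The 2 IL11 groups overlapped, and the LIF groups did not. Without siPIEZO1 vehicle library 1 neither passed, with 0.90 ± 0.25 for IL11 (adjusted p = 0.190) and 0.90 ± 0.23 for LIF (0.144), and the same held without vehicle library 2 or 4 or Yoda1 library 2, 3 or 4 (adjusted p from 0.0695 for IL11 and from 0.0684 for LIF). In siNTC cells LIF was 0.67 ± 0.22 higher with Yoda1 and did not pass (adjusted p = 0.0672), though it did without siNTC Yoda1 library 1, with the replicate block and by DESeq2 (0.0234 to 0.0486). In NT cells edgeR called 0 of 8 members with Yoda1 at 3 h, with 2 at an unadjusted p under 0.05 and 0.409% of all genes called, and DESeq2 called 1. The 2 were LIF (0.75 ± 0.22, adjusted p = 0.129) and STAT3 (0.47 ± 0.15, 0.166). STAT3 read 227, 222, 212 and 213 with Yoda1, all above its 4 vehicle libraries, and passed without NT vehicle library 4 (0.63, adjusted p = 0.0224). Set against each other in NT cells at 3 h, compression and Yoda1 differed in SOCS3, which was lower with compression (−0.97 ± 0.21, adjusted p = 0.00576), where 2.54% of all genes were called lower.

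IL6ST was the one member whose Yoda1 response differed between siPIEZO1 and siNTC cells at 3 h (0.96 ± 0.23, adjusted p = 0.0342), where 0.835% of all genes were called higher. It read 50.4, 59.0, 66.2 and 61.7 CPM with Yoda1 in siPIEZO1 cells, against 37.8, 54.3, 50.4 and 44.7 with vehicle. In siNTC cells it read 45.9, 20.7, 44.1 and 45.9 with Yoda1, against 64.5, 55.2, 60.8 and 59.6 with vehicle (−0.62 ± 0.16, adjusted p = 0.0205), where 3.93% of all genes were called lower. The siNTC Yoda1 library 2 was far below the others, and without it the siNTC value was −0.41 (adjusted p = 0.142) and the difference 0.75 (0.0455). Without siPIEZO1 vehicle library 1 the difference was 0.87 ± 0.23 (adjusted p = 0.0536), and 8 other omissions of 1 library left it between 0.0505 and 0.0761, each of the 4 siNTC vehicle libraries, siPIEZO1 vehicle library 4 and siPIEZO1 Yoda1 libraries 2, 3 and 4.

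At 9 h 2 calls followed a stimulus, both of receptor chains in siPIEZO1 cells. IL6ST read 62.0, 62.7, 64.98 and 59.6 CPM with compression, against 53.7, 39.9, 50.8 and 24.5 with vehicle (0.56 ± 0.16, adjusted p = 0.0474), where 1.34% of all genes were called higher. LIFR averaged 4.37 ± 0.520 with Yoda1 and 2.80 ± 0.586 with vehicle (0.64 ± 0.18, adjusted p = 0.0442), where 1.70% were. Without vehicle library 4, which stood apart, they were 0.38 and 0.54 (adjusted p = 0.302 and 0.230), and most other omissions of 1 library of these groups also ended the calls, IL6ST without vehicle library 2 or any 1 compressed library and LIFR without vehicle library 2 or 3 or any 1 Yoda1 library (adjusted p from 0.0548 and 0.0576). Elsewhere at 9 h edgeR called 0 members: for compression in NT cells and in siNTC cells (1 each at an unadjusted p under 0.05, with 3.51% and 6.43% of all genes called) and for Yoda1 in NT cells and in siNTC cells (1 and 0, with 0.00% and 0.00% called). It also called 0 between NT compression and NT Yoda1 (2, with 0.784%), and in the siPIEZO1 interactions with compression (2, with 1.09%) and with Yoda1 (3, with 0.0269%). DESeq2 called 1 member in the compression interaction and 0 in the others. Without NT compression library 1, CLCF1 passed in compressed NT cells (1.57, adjusted p = 0.0406).

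A few members differed between the vehicle libraries of the transfection states. Against NT vehicle, siNTC vehicle libraries had lower SOCS3 at 3 h, with 2.75, 3.63, 3.79 and 2.75 CPM against 4.33, 5.50, 6.22 and 4.94 (−0.70 ± 0.21, adjusted p = 0.0294), where 3.39% of all genes were called lower. This call was lost without NT vehicle library 2 or 3 or siNTC vehicle library 1 or 4 and with no filter (adjusted p 0.0680 to 0.139). They had lower STAT3 at 9 h (−0.35 ± 0.08, adjusted p = 0.00539; 0.0600 without siNTC vehicle library 1), where 2.63% were. In the 3 h comparison 2 chondrocyte markers were called higher and 4 lower, with sums of 27531 to 28406 CPM in siNTC and 33104 to 36889 in NT libraries. Of the fibroblast and synovial markers 0 were higher and 3 lower, among them PRG4 (−1.47) and COL3A1 (−1.38), with sums of 791 to 857 and 1581 to 1669 CPM. At 9 h 2 chondrocyte markers were higher and 2 lower, and 0 fibroblast and synovial markers were higher and 2 lower (932 to 1390 CPM in siNTC and 1783 to 2018 in NT libraries). Their part in the SOCS3 and STAT3 values was not tested. Against siNTC vehicle, siPIEZO1 vehicle libraries had lower LIFR at 9 h, with 3.60, 2.65, 2.78 and 2.19 CPM against 5.33, 4.13, 4.67 and 4.18 (−0.70 ± 0.18, adjusted p = 0.00771). IL6ST was lower (−0.48 ± 0.16, adjusted p = 0.0448), as was STAT3 (−0.29 ± 0.08, 0.0124), where 6.03% of all genes were called lower. Without siPIEZO1 vehicle library 4 the values were −0.61 for LIFR (adjusted p = 0.0421), −0.29 for IL6ST (0.227) and −0.33 for STAT3 (0.00994). IL6ST was also lost without siPIEZO1 library 2 or siNTC library 1, 3 or 4 (0.0683 or more), and STAT3 without siNTC library 2 (0.0863). At 3 h edgeR called 0 members between siPIEZO1 and siNTC vehicle, with 2 at an unadjusted p under 0.05 and 5.07% of all genes called, and DESeq2 called 0. The 12 chondrocyte markers summed to 19151 to 23979 CPM in siPIEZO1 and 24945 to 37652 CPM in siNTC vehicle libraries at 9 h, and 8 fibroblast and synovial markers to 559 to 671 and 932 to 1390 CPM. They moved with these receptor values, and their part was not tested.

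In NT vehicle cells 3 ligands were lower at 9 h than at 3 h. LIF averaged 5.45 ± 0.809 CPM at 9 h and 43.6 ± 6.18 at 3 h (−3.00 ± 0.24, adjusted p = 6.86e-16), and IL11 averaged 30.0 ± 4.80 at 9 h and 60.2 ± 8.38 at 3 h (−1.004 ± 0.30, 0.0127). CLCF1 was also lower at 9 h (−1.43 ± 0.46, adjusted p = 0.0217), but not without NT vehicle library 4 of 9 h (−1.13, adjusted p = 0.122) or library 1 of 3 h (0.0587). SOCS3 was −0.53 and did not pass (adjusted p = 0.0545), but did without NT vehicle library 1 of 3 h and in 3 other alternatives (0.0286 to 0.0475). These 3 were called lower where 8.10% of all genes were. Vehicle constructs of this experiment thus held more LIF messenger at 3 h, the time of the LIF folds above. The response to compression in NT cells was smaller at 9 h for LIF (log2 difference −1.14 ± 0.33) and STAT3 (−0.58 ± 0.17, adjusted p = 0.0204, and 0.0527 without NT vehicle library 1 of 3 h; 4.58% of all genes were called lower), and higher for SOCS3 (1.34 ± 0.28, with 4.63% called higher). For the NT Yoda1 response edgeR called 0, with 0 at an unadjusted p under 0.05 and 0.104% of all genes, and DESeq2 called 0.

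**Figure D5:**
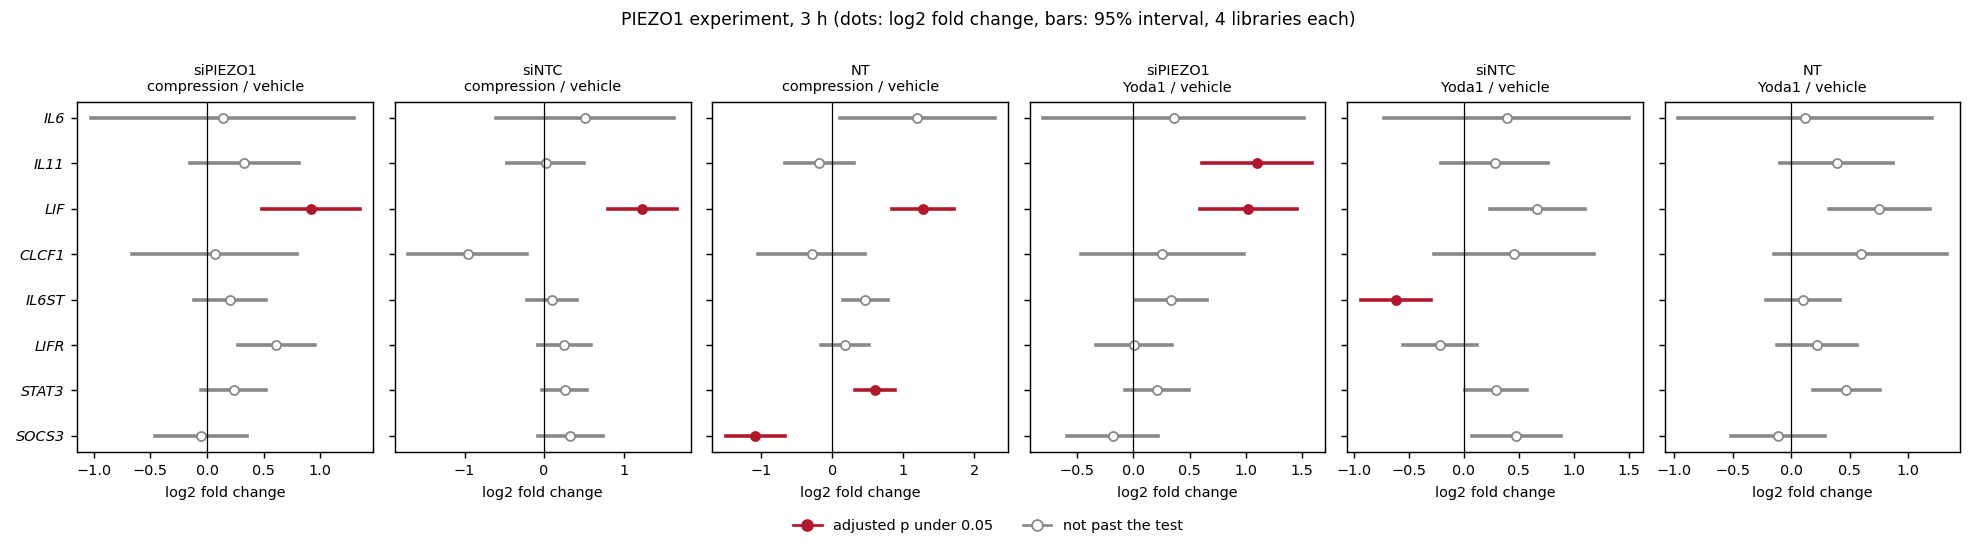
Log2 fold change against the vehicle of the same transfection state at 3 h for compression and for Yoda1, in siPIEZO1, siNTC and NT cells, with bars of 95% intervals and filled red dots where the adjusted p was under 0.05. LIF lies at 0.91, 1.24 and 1.27 with compression, and SOCS3 is called with compression in NT cells.

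Neighbouring groups overlapped for nearly all members in the order of levels. For STAT3 at 3 h, every library of NT compression and NT Yoda1 lay above every library of the other 7 groups. Across the 18 group means, LIF and IL11 had a Pearson r of 0.875, LIF and STAT3 one of 0.686, and LIF and SOCS3 one of 0.139. The genes nearest to LIF were LITAF (0.990) and AGO2 (0.983), and those nearest to IL11 were SFMBT1 (0.941) and GTPBP4 (0.930). Group means share libraries and harvest times, as above. In NT cells at 3 h, compression raised 5 and lowered 1 of the STAT3 target genes (median 0.08, all genes −0.04), where 4.18% of all genes were called higher and 2.09% lower, with PIM1, a survival kinase, up by 1.17 and CEBPD by 0.96. Of the regulators of IL6, 3 were higher and 1 lower (0.35), with NFKBIZ up by 1.25 and ZFP36 down (−1.22). In the transfected cells compression at 3 h called 0 genes of either list, where 0.911% (siNTC) and 0.600% (siPIEZO1) of all genes were called. The median of the STAT3 target genes was 0.08 in siNTC and 0.03 in siPIEZO1 cells, and that of the regulators 0.09 and 0.12.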

How the data were processed

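RNA of pig chondrocytes was sequenced as 120 libraries. The authors deposited counts, whole numbers per gene and library without normalisation, in 1 table of 32388 lines, from which 481 repeated lines were removed to leave 31907 genes. Per the submitters' processing notes, Trim Galore, STAR and HTSeq were used with the build Sscrofa11.1. No source used here names a tool's version or the strand setting. Per the labels' protocols, TRPV4 libraries were depleted of ribosomal RNA and PIEZO1 libraries were made with a low-input kit. The molecule label nonetheless reads polyA RNA for all samples. Even numbers made up 66.1 to 74.8% of counts from 1 to 20 in the TRPV4 experiment and 52.3 to 63.2% in the other, for reasons no source gives, so errors are taken from the spread between libraries. Symbols of 7 members came from the table, and that of CLCF1 from a gene name table by its identifier. Groups and replicate numbers came from the sample titles. No 2 libraries of a group agreed within sampling noise (chi-square per degree of freedom at least 5.49).

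Counts were fitted in R 4.3.3 with edgeR 4.0.16, separately by experiment and time and, for contrasts between times, over both times. Libraries were scaled by TMM, low genes were removed by filterByExpr (minimum count 10), and glmQLFit with 1 term per group was followed by glmQLFTest. Adjusted p-values are Benjamini-Hochberg over all 16562, 16540 and 17447 genes tested in the TRPV4 experiment (3 h, 9 h, both) and 18330, 18611 and 20202 in the PIEZO1 experiment. The SE is the log2 fold change divided by the square root of F. In all, 45 contrasts were made, and the scripts were tested on simulated counts. Alternatives were RLE scaling, DESeq2 1.42.0, no filter, protein-coding genes only, only the compared groups, the replicate number as a block, each library left out, and, chosen after seeing the data, all libraries thinned to one depth. DESeq2 gave no adjusted p for some member results, and its counts of members take these as not called.

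Every call of the 8 members against its control is reported, but members that did not pass are not named in every comparison. Of the lists (STAT3 target genes, regulators of IL6, other ligands, other receptors, JAK-STAT genes, other inhibitors), up to 2 genes with the largest log2 fold change are named per comparison. For the members with the largest changes, the genes nearest by Pearson correlation of group means are named. Some genes that these rules name are not reported here. The members, lists and cell type markers were chosen with earlier results of these data known.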

Additional observations from a re-analysis of the deposited data

Results flagged for a closer look

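In 16 of 240 sets of 4 libraries (1 gene in 1 group), 1 library stood apart from the other 3 by Dixon's gap test at 95%. Chance alone picks about 1 in 20 such sets. In the TRPV4 experiment IL11 read 4.87 CPM in DMSO library 2 at 3 h, with the others between 3.95 and 4.07. IL6ST read 232 in DMSO library 4 at 3 h (others 273 to 278) and 428 in GSK101 library 1 at 9 h (others 482 to 489). LIFR read 93.1 in GSK205 library 1 at 3 h. STAT3 read 425 in GSK101 library 4 at 9 h, a gap that is small in CPM since the others all rounded to 422, and 274 in loading library 3 at 9 h (others 254 to 257).

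The other 10 sets were in the PIEZO1 experiment. NT vehicle library 4 at 9 h was low in 3 genes, with 4.24 CPM for LIF (others 5.80 to 5.91), 0.455 for CLCF1 (1.64 to 1.73) and 2.77 for SOCS3 (3.86 to 4.00). Library 2 of compressed siPIEZO1 cells at 9 h was low in IL11 (18.9, others 35.6 to 37.8) and LIFR (2.41, others 3.70 to 3.83). IL6 was 0.613 in siNTC compression library 4 at 3 h, IL11 was 58.3 in siNTC Yoda1 library 1 at 9 h (others 28.2 to 31.2), and SOCS3 was 3.73 in siPIEZO1 Yoda1 library 3 at 9 h. IL6ST was 20.7 in siNTC Yoda1 library 2 at 3 h (others 44.1 to 45.9). STAT3 was 62.6 in siPIEZO1 vehicle library 1 at 3 h (others 141 to 148), the library that correlated least with its group over all genes.

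Responses that differed by a test of the difference itself made up 24 of 88 member tests in 11 contrasts, in which 0.00 to 45.8% of all genes were called. Of the 24, 6 came from the GSK101 and 7 from the IL-1 response between times, where 45.8% and 38.8% of all genes were called. Values are log2 differences. With GSK205 present, the loading response was smaller at 3 h for IL11 (−1.34) and SOCS3 (−0.50). At 9 h the IL6 response to loading was lower with GSK205 (−0.70), a called fall of −0.56 with GSK205 against an uncalled 0.14 without it. The GSK101 response at 9 h against 3 h was smaller for IL6 (−1.79) and SOCS3 (−0.54) and larger for IL11 (0.98), STAT3 (0.55), IL6ST (0.49) and LIFR (0.25). The IL-1 response was larger at 9 h for IL6 (2.83), LIFR (1.21), STAT3 (1.15) and IL6ST (1.09), changed sign for IL11 (1.499, with 0.62 at 9 h and −0.84 at 3 h), and was smaller for SOCS3 (−0.62) and LIF (−0.51). The loading response was smaller at 9 h for IL11 (−2.51), LIF (−1.86), SOCS3 (−1.37) and CLCF1 (−0.67). Under compression of NT cells the 9 h response was smaller for LIF (−1.14) and STAT3 (−0.58) and larger for SOCS3 (1.34), whose 3 h response was a fall. The Yoda1 response of IL6ST at 3 h was higher in siPIEZO1 than in siNTC cells (0.96).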

How the results depend on the processing

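Of 6095 values of a member under an alternative, 5914 kept their side of the threshold, 137 lost a call, 44 gained one and 0 called values changed sign. A value that was not called in either setting counts as unchanged whatever its sign. Of 119 called values, 93 were never lost, among them all of GSK101 and IL-1 against DMSO. Counts of members called were within 1.5 times under all alternatives in 27 of 45 contrasts. With only the compared groups fitted, 3 members were called for loading at 3 h, 5 for NT compression, 4 for NT compression against NT Yoda1 and 1 for NT Yoda1 at 3 h, 1 between DMSO times, and 0 for the loading by GSK205 interaction at 9 h, siNTC Yoda1, siPIEZO1 compression, siPIEZO1 Yoda1 and the siPIEZO1 by Yoda1 interaction at 3 h, and siPIEZO1 compression, siPIEZO1 Yoda1 and siPIEZO1 against siNTC at 9 h. DESeq2 called 2 for the loading interaction at 9 h, siNTC Yoda1 and siPIEZO1 compression at 3 h and siPIEZO1 Yoda1 at 9 h, and 1 for NT Yoda1 at 3 h and the siPIEZO1 by compression interaction at 9 h. With no filter, 1 was called between DMSO times, 0 for siNTC against NT at 3 h, 0 for siPIEZO1 Yoda1 at 9 h and 1 for the siPIEZO1 by compression interaction at 9 h. RLE scaling and thinning each called 0 for siPIEZO1 compression at 9 h, and thinning 0 for siPIEZO1 Yoda1 at 9 h. The cause of these shifts was not tested. Leaving out 1 library gave 1 to 3 calls for the loading interaction at 3 h and 0 to 2 at 9 h, 1 to 2 between DMSO times, 0 to 2 for siNTC Yoda1 at 3 h and siPIEZO1 Yoda1 at 3 h and 9 h, and 0 to 1 for NT Yoda1 at 3 h, NT compression at 9 h, siNTC against NT at 3 h and 9 h, siPIEZO1 compression at 3 h and 9 h, and the siPIEZO1 interactions with Yoda1 at 3 h and compression at 9 h.

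Same-numbered libraries showed no strong shared deviation (correlations −0.116 to 0.183, and 0 of 45 contrasts with every pair over 0.1). This cannot tell whether they had a common source, which the labels do not give. With the replicate block, 355 of 360 member values kept their side, 3 gained a call and 2 lost one, giving 2 members for siNTC Yoda1 at 3 h and 1 for the siPIEZO1 by compression interaction at 9 h.

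Counts over all genes, the background of the percentages above, moved by more than 1.5 times in the weaker contrasts. For the loading interaction at 3 h they were 666 by DESeq2 and 230 with the replicate block, and for loading at 3 h 1021 with only the compared groups. For siPIEZO1 compression at 3 h they were 275 by DESeq2 and 2 with only the compared groups, for siPIEZO1 Yoda1 at 3 h 146 and 7, for siNTC Yoda1 at 3 h 1570 and 21, and for NT Yoda1 at 3 h 230 and 210. The spread between PIEZO1 libraries, with a coefficient of variation of 0.282 at 3 h against 0.107 in TRPV4 libraries, limits what the PIEZO1 comparisons can show, and IL6 there rests on few counts.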
